A study of Mus musculus with 6 samples.

Results

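The N-glycan processing enzymes examined here are 10 of the genes that encode mannosidases of the endoplasmic reticulum (ER) and Golgi and N-acetylglucosaminyltransferases (MGATs) of the Golgi. They are Man1a, Man1a2, Man1b1, Man1c1, Man2a1, Man2a2, Mgat1, Mgat2, Mgat4a and Mgat5. They were taken by gene name from a deposited table of 55416 genes, and all 10 were found and had enough reads to be tested. RNA was sequenced from cultured primary chondrocytes of neonatal mouse knee joints in 2 groups. The siNC group (3 libraries, wild-type genotype label) received a scrambled control siRNA, and the siPKM2 group (3 libraries) received an siRNA against Pkm2, the M2 splice form of pyruvate kinase. Both groups were transfected, and no untransfected culture was compared. The titles name all 3 libraries of the second group siPKM2, whereas their genotype labels read PKM2, PKM3 and PKM4 knockdown for replicates 1, 2 and 3, and the titles were followed. The study's supplementary methods describe adult rather than neonatal mice as the source of its chondrocytes, no mouse strain is named in the labels, and whether the cultures came from separate animals is not stated, so p-values measure only the spread between these libraries, which may be technical. The genes had been selected with the siPKM2 against siNC contrast already known, so their changes in that contrast are described below and not tested.

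N-glycans are attached to asparagine in the ER as a large precursor that carries glucose and mannose. Glucosidases and mannosidases trim it, and once the ER mannosidase and the class I Golgi mannosidases have removed outer mannose, MGAT1 adds the N-acetylglucosamine that starts a hybrid glycan. Golgi mannosidase II then removes further mannose, MGAT2 starts the second arm of a complex glycan, and MGAT4 and MGAT5 add extra branches that bind galectins at the cell surface. Chondrocytes secrete a matrix rich in glycoproteins that pass through this route.

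The siRNA strands bear on the sequences of these genes, because bases 2 to 8 of a guide strand (its seed) can pair with the 3′ untranslated region of other transcripts. The study's supplement lists 3 siRNAs against Pkm2 and states that the third was selected, without tying a number to the sequenced cultures. The guide of siPkm2 #3 is shown 5′ to 3′ with its seed in capitals, followed by each match to that seed among the 10 genes, with the 7 paired bases in capitals.
siPkm2 #3 guide: uGUUUCUCcagacagcaug
Man1a2: tggccacatGAGAAACaatgtctta
Man1b1: tgtggatcaGAGAAACtgggtagat
Man2a1: acttgagcaGAGAAACtccggcttt
Mgat5: tgtgttgtaGAGAAACtagggagaa
The match in Man1a2 lies at chr3:100567346-100567352 on the minus strand, 258 bases into a 3′ untranslated region of 5402 bases (GENCODE M21 on GRCm38, as for all positions here). The match in Man1b1 lies at chr2:25352039-25352045, that in Man2a1 at chr17:64752587-64752593 and that in Mgat5 at chr1:127488288-127488294, all 3 on the plus strand. Only the Man1a2 match is followed by A, the base that extends the pairing to the first base of the guide. The letters GAGAAAC were absent from the annotated 3′ untranslated regions of Man1a, Man1c1, Man2a2, Mgat1, Mgat2 and Mgat4a. They occurred on the sense strand in 4 of the 10 genes, against 16.4% of 13202 tested genes with an annotated region of at least 50 bases, and against 37.0% of the 2902 genes whose region was at least as long as the median of the 10 genes. The 10 regions had a median of 2570 bases against 1236 for all tested genes, and those of Mgat1 (995 bases) and Mgat2 (788 bases) were shorter than that. A match is given as a feature of the sequence, and whether the siRNA acted on any of these transcripts was not tested.

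The 6 libraries held between 22317065 and 25691096 estimated counts, and the lowest count of any of the 10 genes in any library was 282. Replicate numbers paired the libraries across groups, and replicate 2 of both groups lay apart from the others on the first principal component, which held 49.7% of the variance. Summed markers of chondrocytes (10 genes, among them Col2a1 and Acan) lay between 4088 and 19876 TPM in siNC and between 5468 and 16177 TPM in siPKM2, and none of the 10 was absent. Of the macrophage markers Ptprc and Adgre1, of the endothelial markers Pecam1 and Emcn, and of the muscle markers Myod1, Myog and Ckm stayed under 10 counts in every library. Summed macrophage markers ranged from 10.1 to 99.1 TPM in siNC and from 12.3 to 58.7 TPM in siPKM2, endothelial markers stayed at or below 1.05 TPM and muscle markers at or below 7.12 TPM. Synovial fibroblast markers ranged from 117 to 354 TPM in siNC and from 198 to 455 TPM in siPKM2, and osteoblast markers from 47.6 to 337 TPM and from 45.9 to 139 TPM, with none of these 10 genes absent. The part of other cell types in the values below was not tested, and in such bulk RNA fewer cells of a type and less RNA per cell cannot be told apart. Pkm, the targeted gene, was at 2335, 2746 and 1674 CPM in siNC and at 336, 541 and 309 CPM in siPKM2, so that every siPKM2 library lay below every siNC library, and the counts per gene do not separate its M1 and M2 splice forms. Values of a group are always given in the order of its replicates 1, 2 and 3. CPM here are counts scaled by library total and TMM factor, and TPM are the deposited values per transcript length.

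On the scale per length, the 10 genes covered a wide range of levels in control chondrocytes. Mgat1 was highest at 90.1 ± 44.2 TPM (SD, n = 3), followed by Mgat2 at 60.5 ± 4.22 TPM, Man1b1 at 45.6 ± 8.28 TPM and Man2a2 at 40.3 ± 10.7 TPM (SD, n = 3 each). Man1a2 at 25.5 ± 0.516 TPM, Man2a1 at 17.6 ± 6.30 TPM and Man1a at 17.0 ± 7.94 TPM lay in the middle, and Mgat4a at 6.93 ± 1.95 TPM, Man1c1 at 6.25 ± 2.10 TPM and Mgat5 at 4.38 ± 1.99 TPM were lowest (SD, n = 3 each). Neighbours in this order mostly lay within each other's spread, Man2a1 and Man1a among them, so the order holds between the top, middle and low sets more than within them. In siPKM2, Man1a at 27.6 ± 7.73 TPM stood above Man2a2 at 15.5 ± 3.87 TPM, Man2a1 at 13.3 ± 3.38 TPM and Man1a2 at 12.7 ± 5.16 TPM (SD, n = 3 each), whereas in siNC the mean of Man1a was the lowest of these 4, within the spread of Man2a1.

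**Figure D1:**
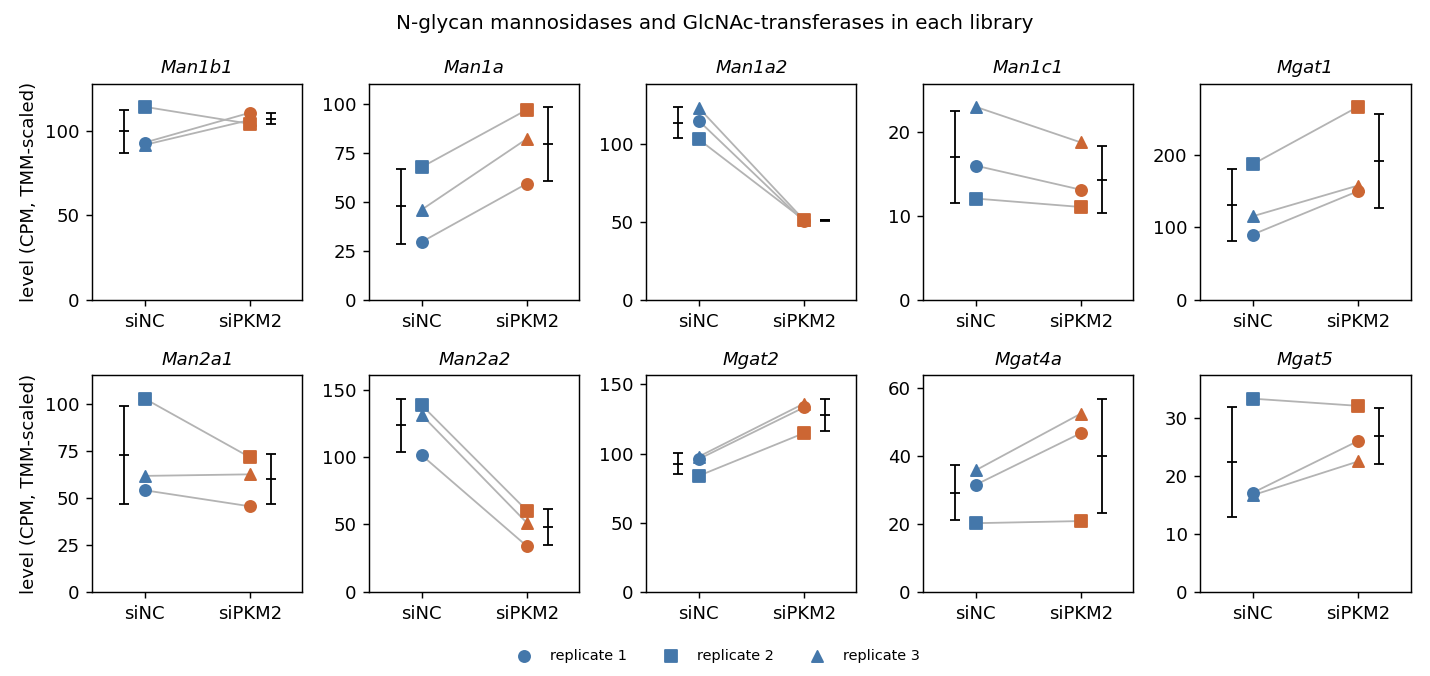
Level of each gene in each library in TMM-scaled CPM (linear axes from 0), with grey lines joining siNC and siPKM2 libraries of the same replicate number and black bars giving mean ± SD of 3 libraries. The 3 siPKM2 libraries sit below all siNC libraries for Man1a2 and Man2a2 and above them for Mgat2, and the groups overlap for the other 7 genes.

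Mannose trimming begins with Man1b1, the ER mannosidase that takes the first mannose from the glycan and helps to mark misfolded glycoproteins. Man1b1 (ENSMUSG00000036646, chromosome 2 from 25332338 to 25352212) was at 93.0, 114 and 91.6 CPM in siNC and at 111, 104 and 106 CPM in siPKM2. The siPKM2 values fell inside the siNC range, and the log2 fold change was 0.10 (standard error 0.14). Pairs 1 and 3 were higher in siPKM2 and pair 2 was lower.

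The class I Golgi mannosidases, which trim the remaining outer mannose, differed in direction from one another. Man1a2 (mannosidase IB, ENSMUSG00000008763, chromosome 3 from 100562208 to 100685503) was at 115, 103 and 123 CPM in siNC and at 50.5, 51.4 and 51.4 CPM in siPKM2. The siPKM2 libraries were nearly identical and all lay below the siNC libraries. Its log2 fold change was -1.16 (standard error 0.12), or 0.449 of the siNC level, and the 3 pairs gave -1.18, -0.997 and -1.25. Man1a (mannosidase IA, ENSMUSG00000003746, chromosome 10 from 53904785 to 54076609) was at 29.6, 67.8 and 46.1 CPM in siNC and at 59.3, 97.0 and 82.2 CPM in siPKM2. The groups overlapped because siNC replicate 2 was above siPKM2 replicate 1, but siPKM2 was higher within each pair, by 0.99, 0.51 and 0.83 on the log2 scale. The fitted log2 fold change of Man1a was 0.73 (standard error 0.33), and 0.78 (standard error 0.11) with the replicate number as a block. Man1c1 (mannosidase IC, ENSMUSG00000037306, chromosome 4 from 134561690 to 134704290) was at 16.0, 12.1 and 23.0 CPM in siNC and at 13.1, 11.1 and 18.8 CPM in siPKM2. It was the least expressed of the 3 and was lower in siPKM2 within each pair, by a fitted log2 fold change of -0.25 (standard error 0.31) that was small beside the spread between replicates.

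Summed per length, the class I Golgi mannosidases overlapped between the groups, while their make-up differed. Their TPM summed to 48.8 ± 8.21 in siNC and 45.4 ± 12.0 in siPKM2 (SD, n = 3 each). Man1a2 made up 62.9%, 46.7% and 50.5% of this sum in siNC and 28.7%, 32.8% and 21.5% in siPKM2. Man1a made up 23.3%, 45.0% and 32.6% in siNC and 57.7%, 59.9% and 64.4% in siPKM2. Man1a2 thus held the largest share in each siNC library and Man1a in each siPKM2 library. Man1c1 stayed between 7.35% and 17.0% in all 6 libraries. The sum and the Man1a2 share of siPKM2 replicate 2 rest on a Man1a2 TPM of 18.6, for which a shorter length was assigned in that library than in the others, as described further on. With each gene held at its length in siNC replicate 1, a setting chosen after seeing the data, the sums were 39.7, 54.5 and 54.2 in siNC and 34.5, 49.3 and 45.3 in siPKM2. The sum was then lower in siPKM2 in all 3 pairs, where the deposited TPM gave a lower sum in pairs 1 and 3 and a slightly higher one in pair 2. The groups still overlapped, at 49.5 ± 8.43 and 43.1 ± 7.69 TPM (SD, n = 3 each), and the Man1a2 share in siPKM2 was 32.3%, 24.7% and 25.8%.

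**Figure D2:**
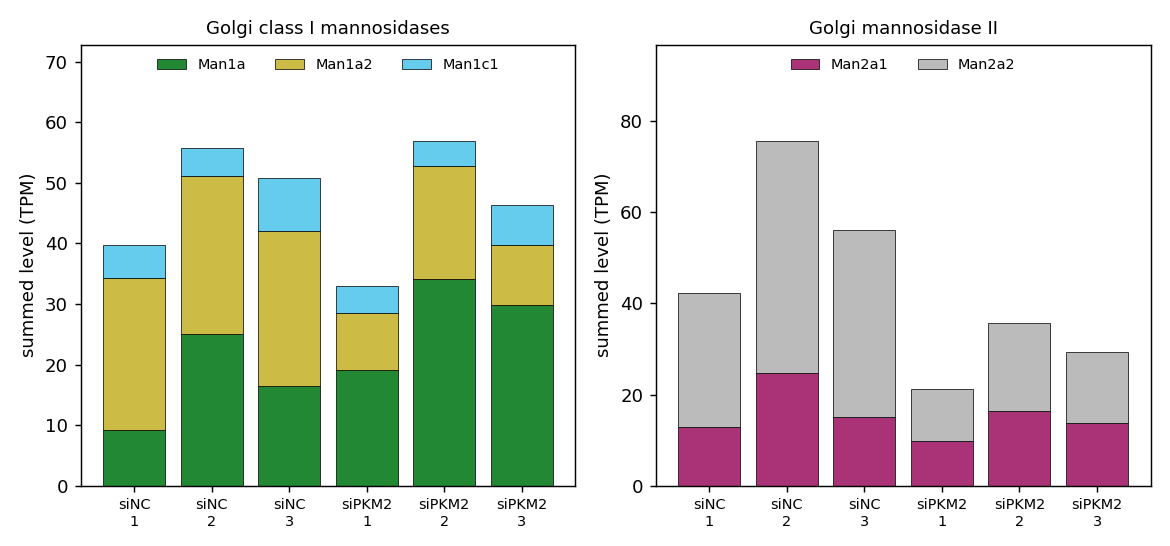
Summed TPM of the class I Golgi mannosidases (left) and of the Golgi mannosidase II pair (right) in each of the 6 libraries, with the colours giving each gene's part. The left sums lie between 33.0 and 56.9 TPM with no separation of the groups, and the right sums lie between 42.3 and 75.6 TPM in siNC and between 21.3 and 35.8 TPM in siPKM2.

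Mgat1 encodes the transferase on which all hybrid and complex N-glycans depend. Mgat1 (ENSMUSG00000020346, chromosome 11 from 49244191 to 49263030) was at 90.0, 187 and 115 CPM in siNC and at 149.6, 266 and 157 CPM in siPKM2. Replicate 2 was the highest library in both groups, which made the groups overlap, and within pairs siPKM2 was higher by 0.73, 0.51 and 0.45 on the log2 scale. The fitted log2 fold change was 0.55 (standard error 0.35), and 0.56 (standard error 0.09) with the block.

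Golgi mannosidase II, which acts only after MGAT1, is encoded by Man2a1 and Man2a2. Man2a2 (mannosidase IIx, ENSMUSG00000038886, chromosome 7 from 80349097 to 80371375) was at 101, 138 and 131 CPM in siNC and at 33.9, 60.2 and 51.1 CPM in siPKM2. All siPKM2 libraries lay below all siNC libraries, and the change was the largest in size of the 10 genes. Its log2 fold change was -1.35 (standard error 0.25), or 0.392 of the siNC level, with -1.57, -1.19 and -1.35 in the 3 pairs. Man2a1 (mannosidase II, ENSMUSG00000024085, chromosome 17 from 64600736 to 64755110) was at 54.0, 103 and 61.6 CPM in siNC and at 45.5, 71.5 and 62.4 CPM in siPKM2. The groups overlapped, the pairs gave -0.25, -0.52 and 0.02, and the fitted log2 fold change was -0.28 (standard error 0.29). The fitted sign of Man2a1 turned to 0.05 without siNC replicate 2, its highest library.

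The sum of the mannosidase II pair was 58.0 ± 16.7 TPM in siNC and 28.8 ± 7.24 TPM in siPKM2 (SD, n = 3 each), and the groups did not overlap. Man2a2 made up 69.3%, 67.2% and 73.0% of the sum in siNC. Its share in siPKM2 was 54.2%, 53.9% and 53.0%, so the pair came close to equal parts there. With each gene held at its length in siNC replicate 1, the Man2a2 share was 69.3%, 61.9% and 71.9% in siNC. In siPKM2 that share was 47.3%, 50.3% and 49.6%, so which gene held the larger part there depended on the assigned lengths. Whereas Man1a of the class I enzymes was higher in siPKM2 within each pair, neither mannosidase II gene had a positive log2 fold change fitted to all 6 libraries.

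Mgat2, whose enzyme acts directly after mannosidase II, was the single gene of the 10 with all siPKM2 libraries above all siNC libraries. Mgat2 (ENSMUSG00000043998, chromosome 12 from 69184157 to 69186770) was at 96.0, 83.9 and 97.8 CPM in siNC and at 133, 115 and 136 CPM in siPKM2. The 3 pairs were close to each other at 0.47, 0.45 and 0.48, and the fitted log2 fold change was 0.47 (standard error 0.14).

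For Mgat5 the difference between the group means was within the spread between replicates, and for Mgat4a it was smaller than the SD of the siPKM2 libraries. Mgat4a (ENSMUSG00000026110, chromosome 1 from 37439340 to 37541016) was at 31.6, 20.2 and 35.8 CPM in siNC and at 46.8, 20.9 and 52.5 CPM in siPKM2. Pairs 1 and 3 were higher in siPKM2 by 0.56 and 0.55 on the log2 scale, and pair 2 by 0.04. The fitted log2 fold change of Mgat4a was 0.46 (standard error 0.38). Mgat5 (ENSMUSG00000036155, chromosome 1 from 127205015 to 127488336), whose product builds the branch most favoured by galectins, was at 17.1, 33.3 and 16.6 CPM in siNC and at 25.96, 32.02 and 22.4 CPM in siPKM2. Its replicate 2 libraries were alike at a high level, pairs 1 and 3 differed by 0.59 and 0.42, and the fitted log2 fold change was 0.26 (standard error 0.32).

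**Figure D3:**
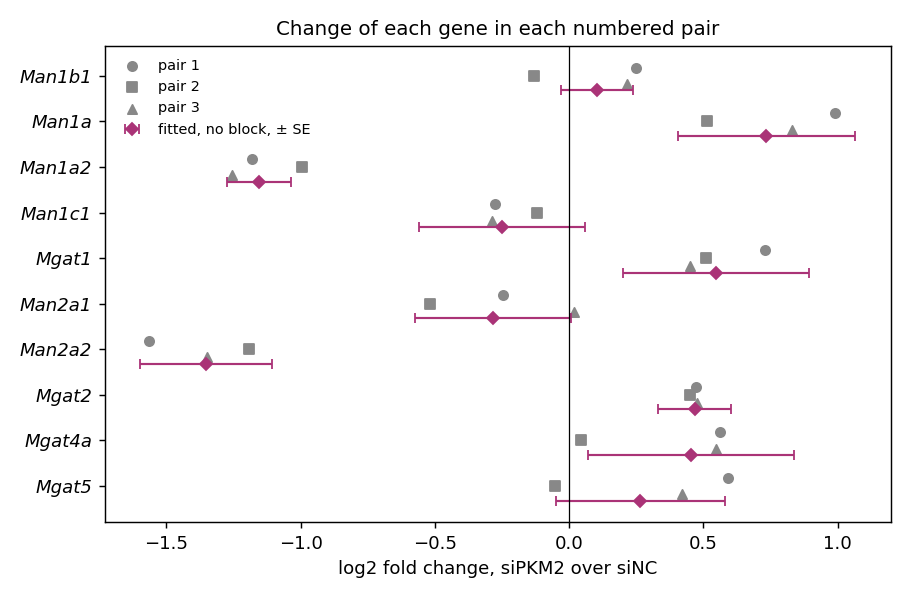
Log2 fold change of siPKM2 over siNC for each gene, ordered by role, in each numbered pair (grey) and as fitted by edgeR without a block (diamonds, ± standard error). All pairs of Man1a2, Man2a2 and Man1c1 lie below 0, all pairs of Man1a, Mgat1, Mgat2 and Mgat4a above 0, and the pairs of Man1b1, Man2a1 and Mgat5 on both sides.

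Across the 10 genes, 6 had a positive and 4 a negative log2 fold change, with a median of 0.18 against -0.02 for all 15269 genes tested. In 3 of the 10 the groups did not overlap, where 24.3% of all genes tested showed the same. By edgeR's quasi-likelihood test without a block, 0 of the 10 genes and 0% of all genes passed an adjusted p of 0.05 (Benjamini-Hochberg), and 3 of the 10 had an unadjusted p under 0.05, against 17.6% of all genes. DESeq2's Wald test without a block called 2 of the 10, Man1a2 and Man2a2, against 5.38% of all genes. With the replicate number as a block, edgeR called 5 of the 10, against 23.1% of all genes. These were Man1a, Mgat1 and Mgat2, higher in siPKM2 (12.3% of all genes), and Man1a2 and Man2a2, lower (10.8% of all genes). With a fold over 2 required as well, 0 of the 10 were called higher (2.65% of all genes) and 2 lower, Man1a2 and Man2a2 (3.18% of all genes), or 2 against 5.83% in either direction. Of the 10, 4 were higher in siPKM2 within all 3 pairs (30.5% of all genes) and 3 were lower within all 3 (30.6% of all genes). With the block but without pair 1, or without pair 3, edgeR called 0 of the 10, and 5 and 6 of the 10 then had an unadjusted p under 0.05, against 25.0% and 23.1% of all genes. Without pair 2 it called 7 of the 10, Mgat4a and Mgat5 in addition, against 39.1% of all genes. Because the genes were selected on this contrast, these counts describe them and lend it no support.

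The genes also varied with the replicate number. Replicate 2 was the highest library of both groups for 5 of the 10, Man1a, Man2a1, Man2a2, Mgat1 and Mgat5, where 26.9% of all genes tested were so placed. It was the lowest library of both groups for Man1c1, Mgat2 and Mgat4a, a pattern shown by 28.5% of all genes. Mgat5 in siNC replicate 2 lay 0.98 above the mean of replicates 1 and 3 on the log2 scale, Man1a 0.88, Mgat1 0.87 and Man2a1 0.83, and in siPKM2 the same genes lay 0.41, 0.47, 0.79 and 0.42 above. Mgat4a lay lower by -0.73 in siNC and -1.25 in siPKM2. Man1a2 was among the least variable by this measure, at -0.21 and 0.01.

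For Man1a2, counts and TPM gave different levels in siPKM2 replicate 2. Its TPM was 25.01, 26.04 and 25.6 in siNC and 9.48, 18.6 and 9.93 in siPKM2, while the CPM of the 3 siPKM2 libraries were equal within 1 CPM. TPM divides a count by a transcript length, so the ratio of count to TPM, scaled by its median over 10300 well-measured genes, tracks the length assigned to a gene in each library. Relative to siNC replicate 1, that length was 0.984 and 1.16 in siNC replicates 2 and 3, 1.17 and 1.18 in siPKM2 replicates 1 and 3, and 0.654 in siPKM2 replicate 2. A larger departure in any library was seen for 2.44% of the 10300 genes. The annotation lists 6 Man1a2 transcripts, the full-length one of 7969 bases and 5 others of 352 to 744 bases, and the deposited values do not separate them. The other 9 genes kept relative lengths between 0.861 and 1.14, and for Mgat2 the largest departure was 0.00373 on the log2 scale.

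The rest of the N-glycan route was examined through 10 lists of genes, of which 118 of 122 listed genes could be tested. Without a block, 0 of the 118 had an adjusted p under 0.05 and 21 had an unadjusted p under 0.05 by edgeR's quasi-likelihood test, where 17.6% of all genes did, and DESeq2's Wald test called 9, where it called 5.38% of all genes. With the replicate block, edgeR called 27 higher and 14 lower in siPKM2, or 22.9% and 11.9%, against 12.3% and 10.8% of all genes tested. The lists were chosen with earlier results of these data known. These counts and the adjusted p below therefore describe the listed genes and are no independent test of them. The blocked values with Benjamini-Hochberg adjustment over all genes by that edgeR test are given for the genes named below, and the number of the 118 called was 0 without pair 1 and 0 without pair 3. The median log2 fold change over the 118 genes without a block was 0.04.

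**Figure D4:**
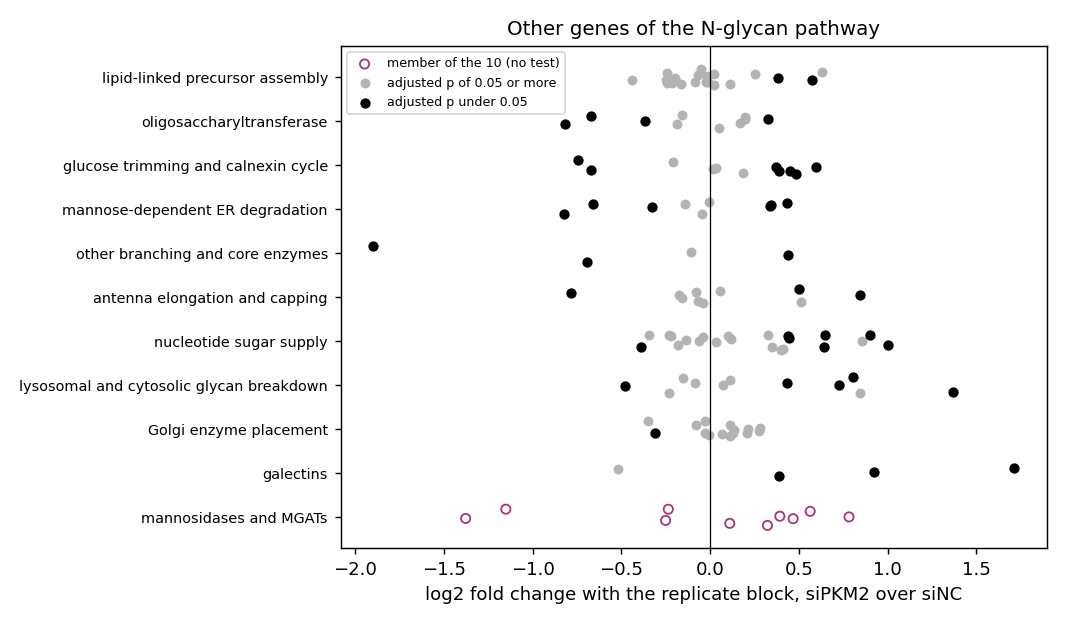
Log2 fold change of siPKM2 over siNC with the replicate block for the tested genes of 10 N-glycan lists (filled, black where the adjusted p by edgeR was under 0.05) and for the 10 mannosidases and MGATs (open, not tested), with points spread vertically for legibility. The lists hold calls on both sides of 0, and the 2 open circles farthest to the left are Man2a2 and Man1a2.

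Of 4 other branching and core enzymes 1 rose and 2 fell with the block, in a fit that called 12.3% of all genes higher and 10.8% lower. Mgat3, whose enzyme adds the bisecting residue that blocks further branching, was at 7.77, 17.9 and 14.4 CPM in siNC and at 1.40, 8.60 and 2.74 CPM in siPKM2, and fell with a log2 fold change of -1.90 (adjusted p = 0.0192 by edgeR with the block). Without the block it was -1.65 (adjusted p = 0.284, same edgeR test), and the groups overlapped through siPKM2 replicate 2. Mgat4b, the paralog of Mgat4a, rose from 52.2 ± 8.27 to 70.6 ± 8.11 CPM (SD, n = 3 each; log2 fold change 0.44, adjusted p = 0.0212 by edgeR with the block). Per length, Mgat4b stood at 49.8 ± 11.5 TPM in siNC, above Mgat4a at 6.93 ± 1.95 TPM (SD, n = 3 each). Manea, a Golgi endomannosidase that offers another route past glucose, fell from 36.5 ± 4.02 to 22.5 ± 2.84 CPM (SD, n = 3 each; log2 fold change -0.70, adjusted p = 0.0133, same edgeR fit). Fut8, which adds the core fucose, was at 27.9 ± 1.43 and 25.9 ± 2.18 CPM (SD, n = 3 each; log2 fold change -0.11, adjusted p = 0.500, same edgeR fit). Mgat4c, Mgat4d and Mgat5b had at most 5 counts in any library and were not tested.

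Upstream of the mannosidases, the lists gave calls in both directions, in a fit that called 12.3% of all genes higher and 10.8% lower. Of 21 genes that build the lipid-linked precursor 2 rose (9.52%) and 0 fell with the block. The 2 that rose were Dolk, the dolichol kinase (log2 fold change 0.57, adjusted p = 0.0185), and Alg10b, a glucosyltransferase (0.38, adjusted p = 0.0436), both by edgeR. Of 11 oligosaccharyltransferase subunits 1 rose and 3 fell, the latter being Magt1 (-0.82, adjusted p = 0.0125), Krtcap2 (-0.67, adjusted p = 0.0207) and Tmem258 (-0.37, adjusted p = 0.0449), by the same edgeR fit. Of 11 genes of glucose trimming and the calnexin cycle 5 rose and 2 fell. Ganab, the catalytic subunit of glucosidase II, fell from 253 ± 34.1 to 151 ± 16.3 CPM (SD, n = 3 each; log2 fold change -0.74, adjusted p = 0.0117 by edgeR with the block). Prkcsh, which encodes the other subunit of glucosidase II, rose (0.39, adjusted p = 0.0435, same edgeR fit). Mcfd2, the partner of the cargo lectin LMAN1, fell (-0.67, adjusted p = 0.0151), while Lman1 itself rose (0.48, adjusted p = 0.0398), both by the same edgeR fit. The lectin gene Lman2 rose (0.60, adjusted p = 0.0176, same edgeR fit). Of 9 genes of mannose-dependent ER degradation 3 rose and 3 fell. Among these Ngly1, the cytosolic N-glycanase (-0.82, adjusted p = 0.0133), and the mannosidase-like Edem3 (-0.66, adjusted p = 0.0173) fell, and the lectin gene Os9 rose (0.43, adjusted p = 0.0243), by the same edgeR fit.

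The MGATs draw on nucleotide sugars made in the cytosol and nucleus and carried into the Golgi. Of 22 genes of nucleotide sugar synthesis and transport 6 rose (27.3%) and 1 fell (4.55%) with the block, against 12.3% and 10.8% of all genes. Slc35a3, which carries UDP-N-acetylglucosamine, the donor of the MGATs, into the Golgi, was at 34.2, 33.1 and 31.4 CPM in siNC and at 87.8, 52.1 and 62.4 CPM in siPKM2 (log2 fold change 1.00, adjusted p = 0.0155 by edgeR with the block). Uap1, which makes that donor, rose from 61.8 ± 12.0 to 114 ± 4.22 CPM (SD, n = 3 each; log2 fold change 0.90, adjusted p = 0.0133, same edgeR fit), and Gfpt2, an entry enzyme of the hexosamine route, rose by 0.65 (adjusted p = 0.0140, same edgeR fit). The siPKM2 libraries of these 3 genes all lay above the siNC libraries, as they did for 12.0% of all genes tested. The 3 were named for the size of their change among the called genes of this list. Without the block their adjusted p were 0.122, 0.116 and 0.209 by edgeR.

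Of 10 genes that extend or cap the antennae 2 rose and 1 fell with the block, against 12.3% and 10.8% of all genes. B4galt1, a main galactosyltransferase of N-glycans, rose from 95.6 ± 26.4 to 169.6 ± 33.8 CPM (SD, n = 3 each; log2 fold change 0.84, adjusted p = 0.0110 by edgeR with the block). Its paralog B4galt2 fell from 44.6 ± 2.10 to 25.9 ± 2.57 CPM (SD, n = 3 each; -0.79, adjusted p = 0.0118), and the sialyltransferase gene St3gal3 rose (0.50, adjusted p = 0.0441), both by the same edgeR fit. Of 11 genes of glycan breakdown 4 rose (36.4%) and 1 fell (9.09%), against the same shares of all genes. The lysosomal mannosidase genes Manba and Man2b1 rose by 1.37 (adjusted p = 0.0252) and 0.80 (adjusted p = 0.0164), and Hexa rose by 0.73 (adjusted p = 0.0243), by the same edgeR fit. These lysosomal mannosidases take mannose from glycans that are being degraded and are distinct from the Golgi enzymes above. Of 15 genes that place Golgi enzymes, including the COG complex, 0 rose and 1 fell, Cog6 (-0.31, adjusted p = 0.0401, same edgeR fit). Of 4 galectins, which read the branches, 3 rose and 0 fell, against 12.3% and 10.8% of all genes. So short a list, chosen with earlier results known, does not speak for a pathway. Those that rose were Lgals9 (1.71, adjusted p = 0.0119), Lgals3 (0.92, adjusted p = 0.0406) and Lgals8 (0.39, adjusted p = 0.0433), by the same edgeR fit. The remaining galectin, Lgals1, had the lowest log2 fold change of the 4, at -0.59 without the block. Lgals9 was at 18.1, 104 and 24.7 CPM in siNC and at 83.2, 242 and 83.2 CPM in siPKM2, so siNC replicate 2 was above siPKM2 replicates 1 and 3.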

How the data were processed

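RNA-seq libraries of primary mouse chondrocytes, 3 siNC and 3 siPKM2, were grouped by their titles. The authors deposited estimated counts per gene, not normalized and partly fractional, for each library. The authors also deposited TPM values, scaled within each library to transcript length and a common total, and their own group means of TPM. The table holds the authors' own comparison as a deposited fold (ratio), log2 fold change and p-value, none of which was used. Per the labels, the submitters' processing notes name edgeR and the build mm9; the aligner and counter are not given in the sources used here. The deposited table carries no coordinates, and positions, transcripts and 3′ untranslated regions (the longest per gene, protein-coding transcripts) were taken from GENCODE M21 on GRCm38 by Ensembl identifier.

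Rounded counts were fitted with edgeR 4.0.16 under R 4.3.3 (filterByExpr, TMM factors, quasi-likelihood test, Benjamini-Hochberg adjustment over 15269 genes). DESeq2 1.42.0 served as an alternative, and limma 3.58.1 was loaded without a fit of its own. Standard errors are the log2 fold change over the square root of F. The study's call was an adjusted p under 0.05 with a fold over 2; here calls of named genes use the adjusted p alone. Total counts ranged from 22317065 to 25691096, and the parts of counting noise and of replicate spread in the precision were not separated. Log2 differences within pairs used a pseudocount of 0.5 CPM. Replicate numbers were taken as pairs, since deviations from the group means of same-numbered libraries correlated at 0.62, 0.73 and 0.60 across genes and those of other numbers at 0.13 at most. Relative lengths used genes with at least 100 counts and over 1 TPM in every library. The scripts were tested on simulated data. Members and lists were chosen with earlier results of these data known. Named were all 10 members, Pkm, up to 3 genes per list with the largest log2 fold change among those called with or without the block, and Mgat3, Mgat4b, Mgat5b and Fut8. Prkcsh and Lman1 were named as partners of named genes, and Lgals1 as the remaining galectin. Tsta3 was matched as Gfus, and 1 listed gene, Tusc3, was not analysed here.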

Additional observations from a re-analysis of the deposited data

How the results depend on the processing

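The number of calls over all genes differed with the test, the block and the libraries kept. At an adjusted p under 0.05 and a fold over 2, edgeR without a block called 0 genes (2690 at an unadjusted p under 0.05), the same at any fold, and 3 with upper-quartile scaling, 9 without a filter, 3 with at least 10 counts in every library, and 430 by DESeq2's Wald test. With the replicate block it called 890, and, in alternatives chosen after seeing the data, 1017 with DESeq2, 900 with RLE scaling and 935 with upper-quartile scaling. Leaving out a single library without the block gave 0 to 105 genes, the 105 without siNC replicate 2, and leaving out a pair with the block gave 0 to 1639, the 1639 without pair 2. At an adjusted p under 0.05, the 0 called genes of the pathway lists became 9 with DESeq2, 41 with the replicate block, and with the block 45 by DESeq2, 41 with RLE and 33 with upper-quartile scaling. They ranged from 0 to 1 with a library left out and from 0 to 55 with a pair left out under the block. The cause was not tested.

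The number of the 10 genes with a positive log2 fold change was 6 under each alternative except without siNC replicate 2 or siNC replicate 3, where it was 7. Of the 10, Man2a1 changed sign without siNC replicate 2 (0.05) and Man1c1 without siNC replicate 3 (0.03), and the other 8 kept their sign in all 19 alternatives. With each library left out, Man1a2 stayed between -1.22 and -1.09, Man2a2 between -1.54 and -1.15, Mgat2 between 0.40 and 0.55, Man1a between 0.49 and 1.07, Mgat1 between 0.24 and 0.90, Mgat4a between 0.22 and 0.77, Mgat5 between 0.10 and 0.67 and Man1b1 between 0.05 and 0.21, and the highest values of Man1a, Mgat1, Mgat5 and Man1b1 were those without siNC replicate 2. On the log2(TPM + 1) scale Man1a2 was at -1.02. RLE and upper-quartile scaling moved the median of all genes by 0.00174 and -0.0664 on the log2 scale.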

Other observations

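The seeds of the other listed siRNAs were matched in the same way to the 3′ untranslated regions of the 10 genes. The site for the guide of siPkm2 #2, AAGAATG, was present in Man1a2, Man2a1, Mgat4a and Mgat5, or 4 of the 10 against 15.9% of all tested genes with an annotated region and 37.4% of those whose region was at least as long as the median of the 10 genes. That for siPkm2 #1, TGTACCA, was present in Man1c1 and Man2a1, against 10.9% of genes and 25.2% of those with such long regions. That for the antisense strand of the scrambled control, TGTCACG, was present in Mgat5 alone, against 3.08% of genes and 7.20% of those with such long regions. Man1a, Man2a2, Mgat1 and Mgat2 held none of the 4 sites in the longest annotated region, the only one searched, and Man2a1 and Mgat5 held 3 each. Whether any of these siRNAs acted on these transcripts was not tested.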
